A study of Mus musculus with 34 samples.

Results

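The Ets family is a group of transcription factors that share 1 kind of DNA-binding domain. The 10 members described here are Spi1 (which encodes PU.1), Spib, Erg, Fli1, Ets1, Ets2, Etv5, Etv6, Elf1 and Elf4. They were chosen by name from the 24505 gene names of a table of early thymocytes made with Lck-Cre, and 4 of them (Spib, Erg, Ets2 and Etv5) also have values in a table of 2076 genes from thymocytes made with Vav1-iCre. All 10 had a mean level of at least 1 RPKM (read counts scaled to exon length and to the library total) in at least 1 Lck group, and they are among the 12218 genes tested.

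Ets proteins recognise DNA around the core GGAA, and many act beside partners such as Runx factors. PU.1 drives myeloid and B-cell development and is made by the earliest progenitors in the thymus, which shut it off as they commit to the T lineage. Other members, such as Ets1, remain active in T cells throughout their life, so that early T-cell development is also a change in which Ets factors a cell holds.

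Messenger RNA was sequenced from CD4- and CD8-double-negative (DN) thymocytes of C57BL6/J mice, all carrying a Cre transgene and a yellow fluorescent protein (YFP) reporter. The genotypes at Bcl11b, a zinc-finger factor gene of T-lineage commitment, were flx/flx (HOM), flx/+ (HET) and +/+ (WT). Lck-Cre acts in thymocytes around the passage from the DN2 to the DN3 stage, and its libraries are 5 HOM (sorted as YFP+CD25+, with no stage named), 6 HET DN3 and 5 WT DN3 (YFP+CD25+), and 5 HET DN2 and 4 WT DN2 (YFP-CD25+). Stage and reporter therefore change together between the DN3 and DN2 groups. Vav1-iCre is active from the blood stem cell onwards, and its libraries (YFP+CD25+) are 3 HOM, 4 HET and 2 WT. Each library was made from 300000 cells. Ages are not given, nor whether each library came from an animal of its own, so p-values measure the spread between libraries, which may be technical.

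Lck libraries held 15772841 to 43105091 counts. Bcl11b, the targeted gene, had 33.02 to 58.3 RPKM in HOM libraries, 92.0 to 123 in HET DN3, 89.1 to 124 in WT DN3, 123 to 160 in HET DN2 and 133 to 163 in WT DN2. HOM libraries thus lay below all others, whereas the HET and WT values of a stage overlapped, so this level does not check the HET labels. Reads over exons outside the deleted part also count here, since the values cover the whole gene. Defining thymocyte genes were present in every library (summed level of 9 markers 1865 to 2729 RPKM in HOM and 3114 to 3828 RPKM in WT DN3). Markers listed for thymic epithelium (10 genes) summed to 218 to 1991 RPKM in 6 libraries, against at most 32.7 RPKM in the others. The 6 were HOM replicates 2 and 3, HET DN3 replicates 2 and 3 and HET DN2 replicates 1 and 2. In HET DN3 replicate 2, Clu held 708.9 RPKM of the sum, Krt8 490.5 and Krt18 465.8. Krt5 was listed at 0 in all 6, and Krt14 and Foxn1 in most of them. These epithelial transcripts therefore do not name a cell type. WT DN3 replicate 5 also stood apart: its 3 DN2-stage markers (Kit, Cd44 and Cpa3) summed to 43.0 RPKM, against 8.46 to 9.68 RPKM in the other 4 WT DN3 libraries. HET DN3 replicate 1 held 2340 RPKM of erythroid markers (7 genes), against at most 109.7 RPKM in any other library. It also held 133.7 RPKM of mature T-cell markers (6 genes), and WT DN2 replicate 2 held 211 RPKM of them, against at most 54.7 RPKM elsewhere. Member results that rest on these libraries are mostly given with and without them. For the gene lists and the genes named from them this is done only in part.

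The promoters of the 3 members called in HOM against each of WT DN3, HET DN3 and WT DN2 are shown first, as 250 bases upstream of a start site in RefSeq (build GRCm38.p6). They are Spib, which was lower in HOM, Erg, which was lower, and Elf4, which was higher. Capitals mark the Ets core GGAA or its complement TTCC and, in Erg, the GATA motif.
Spib, chr7:44532072-44532321, minus strand: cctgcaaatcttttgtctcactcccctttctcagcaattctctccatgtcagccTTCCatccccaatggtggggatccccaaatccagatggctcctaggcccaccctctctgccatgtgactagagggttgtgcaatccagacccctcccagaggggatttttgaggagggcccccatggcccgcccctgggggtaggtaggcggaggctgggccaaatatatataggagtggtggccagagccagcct
Erg, chr16:95459349-95459598, minus strand: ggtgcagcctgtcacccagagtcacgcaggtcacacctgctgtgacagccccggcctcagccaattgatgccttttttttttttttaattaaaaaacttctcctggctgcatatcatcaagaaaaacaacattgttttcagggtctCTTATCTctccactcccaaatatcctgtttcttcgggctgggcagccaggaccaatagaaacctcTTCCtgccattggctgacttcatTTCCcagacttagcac
Elf4, chrX:48463133-48463382, minus strand: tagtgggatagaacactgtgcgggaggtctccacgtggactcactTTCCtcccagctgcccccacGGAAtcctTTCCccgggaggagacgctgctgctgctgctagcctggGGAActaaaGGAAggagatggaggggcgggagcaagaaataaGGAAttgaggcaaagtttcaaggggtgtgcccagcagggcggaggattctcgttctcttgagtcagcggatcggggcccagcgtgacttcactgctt
The Spib window holds 1 core, the Erg window 2 and the Elf4 window 6, beside a median of 3 (5th to 95th percentile 0 to 6) in all 32851 promoters of the table. RefSeq gives Elf4 another start, whose window holds 2 cores, and Erg 2 others, with 4 and 0. The windows shown, for Elf4 that with more cores and for Erg that with the GATA motif, were chosen after the search. RefSeq entries matched 7 of the 10 members, with 12 start sites, and 9 of these 12 held a core, as did 93.4% of all promoters. Of 4 longer motifs searched on both strands, CGGAAGT (Ets class, in 4.92% of promoters), GAGGAAG (PU.1 class, 10.6%) and TGTGGTT (Runx, 4.4%) were in none of the 12 windows. The GATA motif AGATAAG (2.74% of promoters) was in 1, the Erg window above, as its complement CTTATCT, whose first base lies 104 bases before the start. CGGAAGT and GAGGAAG each contain the core. A match describes these letters only.

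Ets1 was the most abundant member in all 5 Lck groups and Elf1 the next, on the scale of RPKM, which corrects for gene length. In WT DN3 the order continued with Elf4, Ets2, Etv6, Fli1, Spib, Erg, Etv5 and Spi1, from 157 ± 20.3 RPKM for Ets1 to 1.45 ± 2.05 RPKM for Spi1 (SD, n = 5). Only 3 steps in that order separated neighbours without overlap of their libraries: Ets1 above Elf1, Elf1 above Elf4 and Etv5 above Spi1. In HOM the order was Ets1, Elf1, Elf4, Fli1, Ets2, Etv6, Etv5, Erg, Spib and Spi1, and the steps without overlap were Ets1 above Elf1, Elf4 above Fli1 and Etv6 above Etv5. HET DN3 had the order Ets1, Elf1, Elf4, Fli1, Etv6, Ets2, Spib, Etv5, Erg and Spi1, with no overlap at the first step and the last. In WT DN2 the order was Ets1, Elf1, Etv6, Elf4, Fli1, Erg, Ets2, Spib, Spi1 and Etv5, and HET DN2 had the same order. WT DN2 neighbours overlapped except Ets1 above Elf1, Etv6 above Elf4, Fli1 above Erg, Erg above Ets2 and Spi1 above Etv5, and HET DN2 neighbours overlapped except Ets1 above Elf1 and Spib above Spi1.

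**Figure D1:**
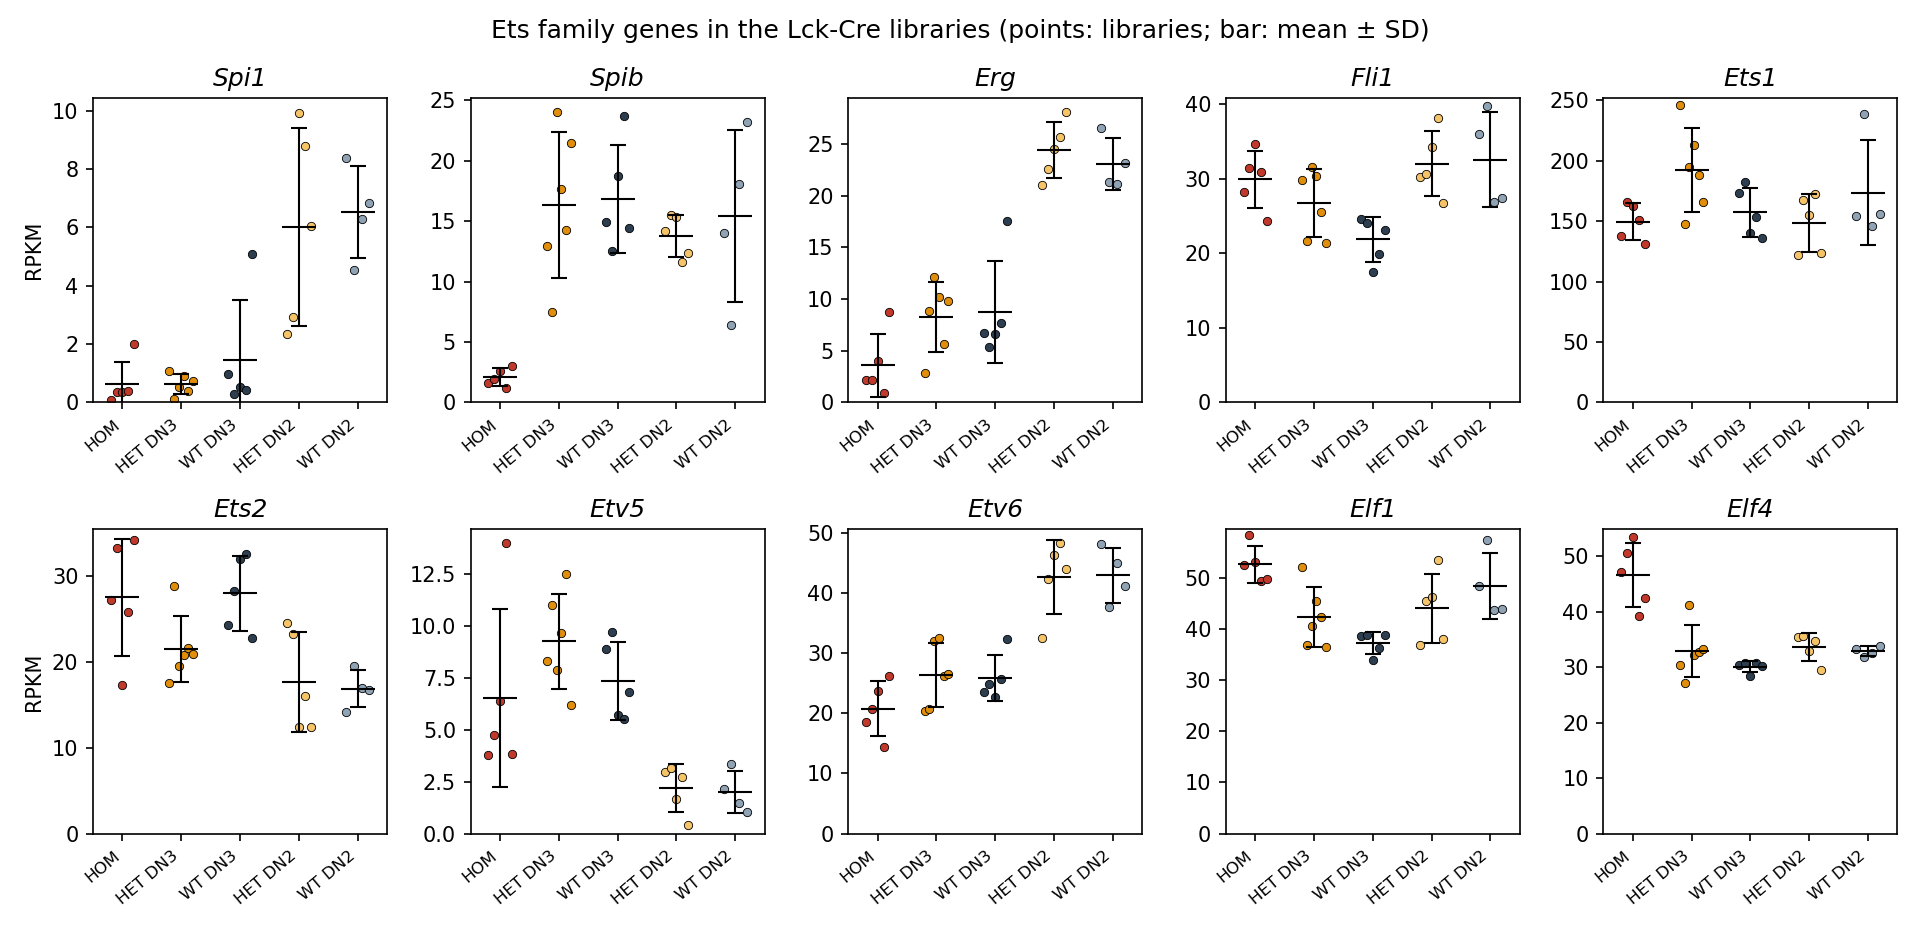
Level of each of the 10 members in RPKM (vertical axis, from 0 in every panel) in the Lck groups HOM, HET DN3, WT DN3, HET DN2 and WT DN2. Points are libraries and bars give the mean ± SD. Spib was at 1.22 to 3.03 RPKM in HOM and at 6.41 RPKM or more in every other library, and Spi1, Erg and Etv6 had their highest means in the DN2 groups, as did Fli1.

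Measured against WT DN3, 5 of the 10 members differed in HOM cells. Spib and Erg were lower, and Fli1, Elf1 and Elf4 were higher (edgeR quasi-likelihood test, Benjamini-Hochberg adjusted p under 0.05). The background was high, since 39.4% of all tested genes were called in that comparison (19.8% higher, 19.7% lower), so 5 of 10 is near what genes in general did. The median log2 change was -0.15 over the members and 0.009 over all genes. Against HET DN3, 4 members were called in HOM (Spib and Erg lower, Elf1 and Elf4 higher; 24.8% of all genes, 11.8% higher and 13.0% lower). Against WT DN2, 7 members were called in HOM, Spi1, Spib, Erg and Etv6 lower and Ets2, Etv5 and Elf4 higher (41.2% of all genes, 21.3% higher and 19.9% lower). The 3 comparisons share the HOM libraries.

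Between stages, 6 members were called in WT DN3 against WT DN2, where Ets2 and Etv5 were higher and Erg, Fli1, Etv6 and Elf1 lower (21.5% of all genes, 12.2% higher and 9.3% lower; by limma 1053 genes were higher and 1665 lower, by edgeR 1486 and 1136). In the paired fit of that comparison, with the replicate number as a block, 7 members and 5508 genes were called. That fit holds only the libraries of these 2 groups that share a replicate number. The main fit, which holds all Lck groups, called 2622 genes. With the 2 groups alone and no block, 4497 genes and 7 members were called, so the rise from 2622 is not due to the block alone. The seventh member in the paired fit was Spi1. HET DN3 against HET DN2 gave 4 called members, Etv5 higher and Spi1, Erg and Etv6 lower (10.9% of all genes, 6.36% higher and 4.52% lower). A direct test of whether the stage step differed between HET and WT called 0 genes (0.0% of all genes; 1112 genes had an unadjusted p under 0.05, and DESeq2 called 20). Member differences between the steps ran from -1.19 (Spi1) to 0.47 (Ets1) on the log2 scale, with adjusted p of at least 0.525.

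**Figure D2:**
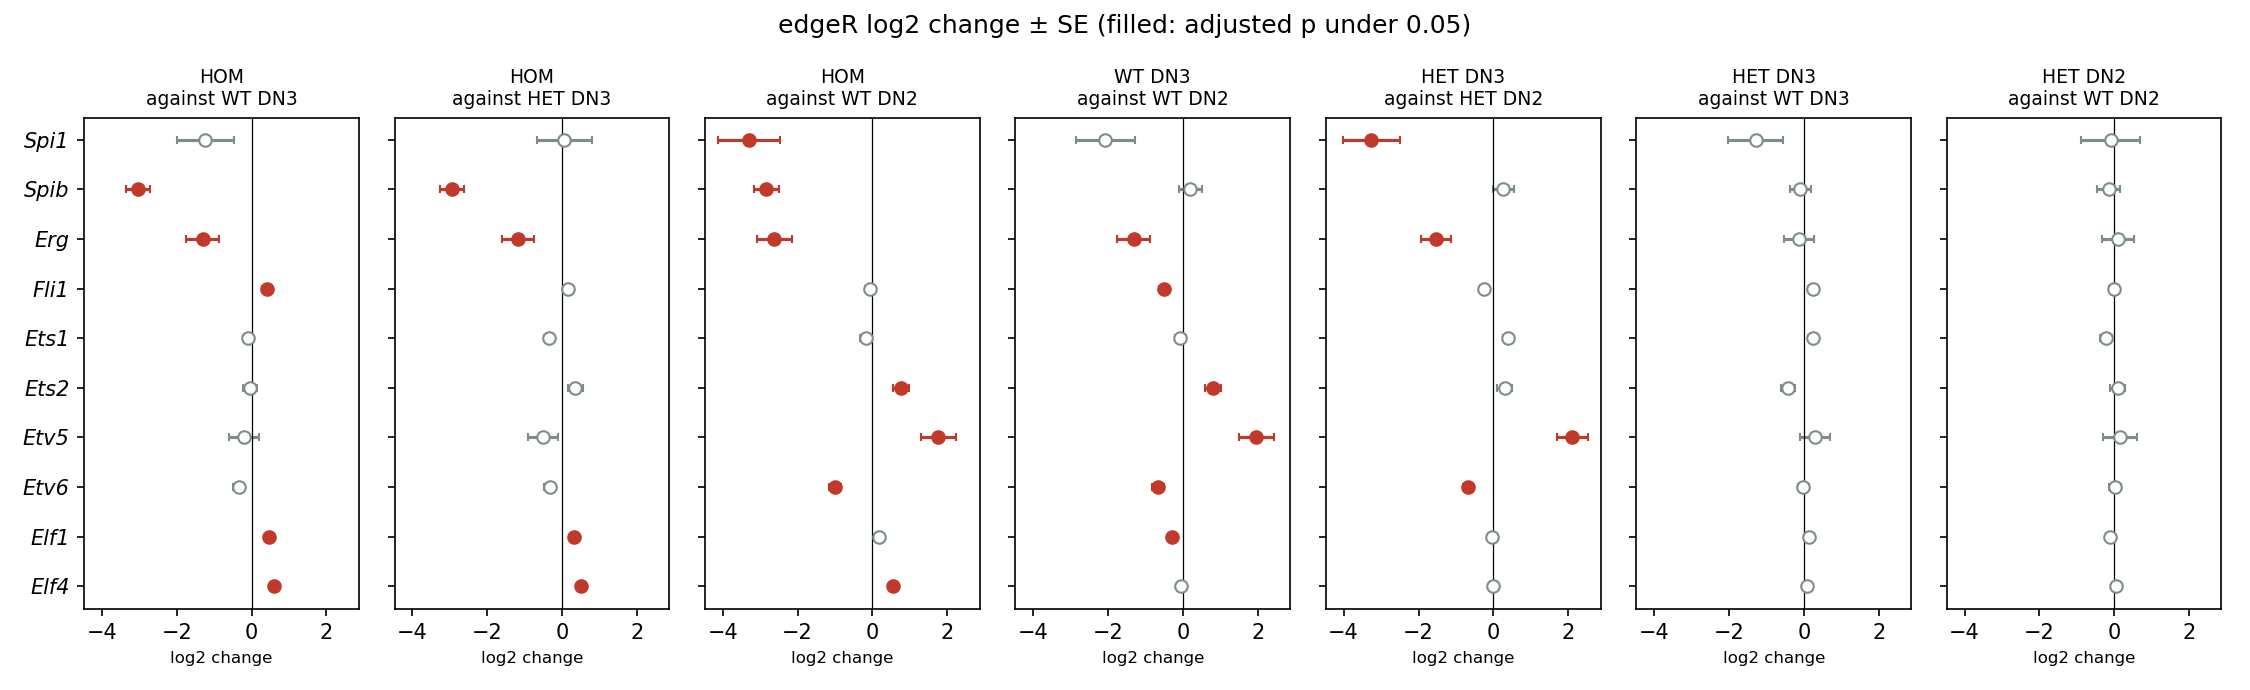
Log2 change of each member (horizontal axis, bars ± SE) in 7 comparisons of Lck groups, with the first-named group over the second. Filled points passed an adjusted p of 0.05; HOM against WT DN2 has 7 of them, the stage steps 6 and 4, and the 2 comparisons of HET with WT have 0.

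PU.1 and SpiB are close relatives that bind the same sequences, and their levels followed different patterns over the groups. Spi1 had 0.0798, 0.357, 0.348, 0.378 and 1.99 RPKM in HOM, against 0.959, 0.269, 0.517, 0.418 and 5.10 RPKM in WT DN3. HET DN3 libraries ran from 0.109 to 1.08 RPKM (median 0.628). In the DN2 groups Spi1 had 2.34, 2.93, 9.91, 8.80 and 6.05 RPKM in HET DN2 and 8.39, 4.55, 6.29 and 6.85 RPKM in WT DN2. The DN3 and HOM libraries were low and the DN2 libraries high, and apart from WT DN3 replicate 5 the DN3 and HOM libraries stayed below all DN2 libraries. Spi1 rested on few reads, 117 summed counts in 5 HOM libraries and 898 in 4 WT DN2 libraries.

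Spi1 (chr2:90936835-90955916, plus strand, mm9) was 9.9-fold lower in HOM than in WT DN2 (log2 change -3.31, SE 0.83, adjusted p 0.00293), with no overlap, and the change was -4.43 (adjusted p 0.00031) without HOM replicate 5. In bulk samples, fewer cells of a type and less RNA per cell cannot be told apart. HET DN3 was lower than HET DN2 by a similar amount (log2 change -3.26, SE 0.76, adjusted p 0.00809). In WT DN3 against WT DN2 the change was -2.07 (SE 0.79, adjusted p 0.0654), which missed the threshold. Without WT DN3 replicate 5, the library with DN2-stage markers, it was -3.51 (adjusted p 0.00258), and the paired fit, which does not hold that library, gave -3.58 (SE 0.20, adjusted p 2.02e-05). HOM against WT DN3 gave -1.24 (SE 0.76, adjusted p 0.204), and this value was set by single libraries: it was 0.22 without WT DN3 replicate 5 and -2.36 (adjusted p 0.0198) without HOM replicate 5. Of the 13 macrophage and dendritic markers, Csf1r, a receptor gene of macrophages, was at most 0.29 RPKM in HOM and 0.28 RPKM in WT DN2. The list did not move as a whole: Lyz2, a lysozyme gene of myeloid cells, had 0.455 to 2.66 RPKM in HOM and 12.2 to 16.3 RPKM in WT DN2, whereas Flt3, a cytokine receptor gene of progenitors and dendritic cells, averaged 1.27 RPKM in HOM and 0.0745 RPKM in WT DN2. The list summed to 16.2 to 32.5 RPKM in HOM and 26.8 to 73.4 RPKM in WT DN2, and its part in the Spi1 result was not tested.

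Spib, by contrast, was low in HOM and not in the DN3 controls. It had 1.62, 1.92, 2.62, 1.22 and 3.03 RPKM in HOM, against 14.9, 12.5, 18.8, 23.7 and 14.4 RPKM in WT DN3. HET DN3 libraries ran from 7.47 to 24.1 RPKM (median 15.9), HET DN2 libraries from 11.6 to 15.5 RPKM and WT DN2 libraries from 6.41 to 23.2 RPKM. No HOM library reached any library of another group. The gene (chr7:51781365-51787441, minus strand, mm9) was 8.21-fold lower in HOM than in WT DN3 (log2 change -3.04, SE 0.32, adjusted p 1.92e-07), 7.70-fold lower than in HET DN3 (-2.95, SE 0.32, adjusted p 3.49e-07) and 7.14-fold lower than in WT DN2 (-2.84, SE 0.33, adjusted p 6.75e-07). All 3 calls stood under every alternative run. The stage step gave 0.26 (adjusted p 0.611) in HET and 0.20 (adjusted p 0.703) in WT. The Spib to Spi1 ratio of levels averaged 7.60 in HOM (1.53 to 20.3), 35.3 in HET DN3, 31.6 in WT DN3 (2.83 to 56.8), 3.25 in HET DN2 and 2.34 in WT DN2.

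B-cell markers (7 genes) moved with Spib, which B cells also express: they summed to 10.8 to 18.9 RPKM in HOM, 19.4 to 30.3 RPKM in WT DN3 and 24.9 to 42.1 RPKM in WT DN2. Their part in the Spib result was not tested. Pax5, which defines B cells, was listed at 0 in 3 of 5 HOM libraries, in all 5 WT DN3 and in all 4 WT DN2 libraries. Siglech, a marker of plasmacytoid dendritic cells, which also express Spib, was listed at 0 in all HOM libraries and reached 0.0527 RPKM in WT DN3.

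Erg maintains blood stem cells and Fli1 is its nearest relative. Erg had 2.14, 2.16, 4.05, 0.895 and 8.71 RPKM in HOM, against 6.72, 5.32, 6.65, 7.69 and 17.5 RPKM in WT DN3. HET DN3 libraries ran from 2.85 to 12.1 RPKM (median 9.35). HET DN2 libraries had 21.1 to 28.1 RPKM and WT DN2 libraries 26.6, 21.4, 21.2 and 23.2 RPKM. The DN2 libraries were all above every DN3 and HOM library, WT DN3 replicate 5 was the highest of the DN3 libraries, and HOM overlapped WT DN3 through HOM replicate 5.

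Erg (chr16:95580776-95680955, minus strand, mm9) was 6.16-fold lower in HOM than in WT DN2 (log2 change -2.62, SE 0.46, adjusted p 9.69e-05; -3.26 without HOM replicate 5). The change was -1.31 in WT DN3 against WT DN2 (SE 0.44, adjusted p 0.0377; paired fit -1.73, SE 0.09, adjusted p 1.15e-05; lost without any single library of these groups other than WT DN3 replicate 5, at adjusted p 0.057 to 0.0911) and -1.54 in HET DN3 against HET DN2 (SE 0.40, adjusted p 0.0165; 0.0923 without the 6 libraries with epithelial transcripts and 2 with mature T-cell transcripts). HOM cells had 2.48-fold less Erg than WT DN3 cells (log2 change -1.31, SE 0.43, adjusted p 0.0195). That call was lost without WT DN3 replicate 5 (-0.88, adjusted p 0.102), without HOM replicate 1 (adjusted p 0.0518) or 2 (adjusted p 0.0528) and without the 6 libraries with epithelial transcripts (-1.18, adjusted p 0.0973), while the change was -1.95 (adjusted p 0.000528) without HOM replicate 5. Against HET DN3 the change in HOM was -1.18 (SE 0.42, adjusted p 0.0414), and it was lost without any of 8 single libraries (adjusted p 0.0583 to 0.111) and without the 6 (-0.83, adjusted p 0.316), and was -1.82 (adjusted p 0.00133) without HOM replicate 5. Endothelial cells also express Erg, and their markers (7 genes) summed to 32.2 to 53.7 RPKM in HOM, 30.5 to 40.1 RPKM in WT DN3 and 54.4 to 59.5 RPKM in WT DN2. Pecam1 made up most of these sums, with means of 40.2 RPKM in HOM, 24.5 in WT DN3 and 44.0 in WT DN2. Emcn was listed at 0 in every HOM and WT DN2 library. Cdh5, the cadherin gene of endothelium, was at most 0.2 RPKM in HOM, at most 0.181 RPKM in WT DN3 and 0.367 to 0.686 RPKM in WT DN2. The part of these markers in the Erg result was not tested.

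Fli1 (chr9:32229789-32349037, minus strand, mm9), a factor of blood and megakaryocyte development, moved less. It had 28.2, 31.4, 34.7, 30.9 and 24.3 RPKM in HOM, against 24.6, 24.1, 17.5, 19.9 and 23.2 RPKM in WT DN3. The groups overlapped by 1 HOM library, and the log2 change was 0.42 (SE 0.13, adjusted p 0.0159; 0.32, adjusted p 0.107, without the 6 libraries with epithelial transcripts). WT DN3 was lower than WT DN2 by 1.41-fold (log2 change -0.50, SE 0.14, adjusted p 0.0151), a call lost without WT DN2 replicate 1 or 2 or WT DN3 replicate 3 (adjusted p 0.0512 to 0.0791) and kept in the paired fit (-0.51, SE 0.06, adjusted p 0.000305). HOM against WT DN2 gave -0.07 (adjusted p 0.708). The Erg to Fli1 ratio of levels averaged 0.130 in HOM, 0.318 in HET DN3, 0.404 in WT DN3, 0.776 in HET DN2 and 0.727 in WT DN2.

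Ets1, a factor that T cells need from early stages on, was at 149.5 ± 15.3 RPKM in HOM and 157 ± 20.3 RPKM in WT DN3 (SD, n = 5 each). Its libraries ran from 131 to 166 RPKM in HOM and from 136 to 182 RPKM in WT DN3 and overlapped. No comparison passed the test in the main fit for Ets1 (chr9:32503627-32565405, plus strand, mm9). The largest change was 0.40 in HET DN3 against HET DN2 (SE 0.13, adjusted p 0.0581). It was called by DESeq2 (adjusted p 0.0276) and without HET DN3 replicate 2 (adjusted p 0.033) or 6 (0.0448). HOM against HET DN3 gave -0.35 (SE 0.13, adjusted p 0.058), which was called by DESeq2 (adjusted p 0.0374) and without the 6 libraries (-0.53, adjusted p 0.0339). This change was also called without HET DN3 replicate 2 (adjusted p 0.0266) or 6 (0.0451).

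Ets2, its closest relative, differed by stage. It had 27.2, 33.2, 17.3, 25.8 and 34.1 RPKM in HOM, against 24.3, 28.2, 31.9, 32.5 and 22.8 RPKM in WT DN3. HET DN3 libraries ran from 17.5 to 28.8 RPKM and HET DN2 libraries from 12.4 to 24.5 RPKM. WT DN2 had 14.2, 19.5, 17.0 and 16.8 RPKM, below every WT DN3 library, and HOM overlapped WT DN2 through HOM replicate 3. The gene (chr16:95924014-95942656, plus strand, mm9) was 1.75-fold higher in WT DN3 than in WT DN2 (log2 change 0.81, SE 0.21, adjusted p 0.0085) and 1.69-fold higher in HOM than in WT DN2 (0.76, SE 0.21, adjusted p 0.00607). In HET the stage step gave 0.30 (SE 0.19, adjusted p 0.313), or 0.59 (adjusted p 0.0181) without the 6 libraries with epithelial transcripts, 2 of which are the highest HET DN2 values. HOM against HET DN3 likewise gave 0.36 (adjusted p 0.162) with those libraries and 0.54 (adjusted p 0.0109) without them.

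Etv5 belongs to the Ets genes that the ERK kinase pathway induces, and its level was higher at DN3 than at DN2. It had 3.79, 4.73, 6.36, 13.97 and 3.83 RPKM in HOM, against 8.88, 9.71, 5.72, 5.53 and 6.81 RPKM in WT DN3. HET DN3 libraries ran from 6.17 to 12.5 RPKM (median 8.97) and HET DN2 libraries from 0.393 to 3.16 RPKM. WT DN2 libraries had 2.16, 3.35, 1.45 and 1.04 RPKM. Every DN3 and HOM library was above every DN2 library, and HOM overlapped WT DN3. Etv5 (chr16:22381386-22439643, minus strand, mm9) was 3.89-fold higher in WT DN3 than in WT DN2 (log2 change 1.96, SE 0.47, adjusted p 0.00469), 4.33-fold higher in HET DN3 than in HET DN2 (2.11, SE 0.42, adjusted p 0.00278) and 3.40-fold higher in HOM than in WT DN2 (1.76, SE 0.46, adjusted p 0.0041). HOM against WT DN3 gave -0.20 (SE 0.41, adjusted p 0.733).

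Etv6, a repressor needed by blood stem cells, went the other way between stages. It had 18.6, 20.8, 23.7, 14.5 and 26.3 RPKM in HOM, against 23.6, 24.96, 22.7, 25.7 and 32.3 RPKM in WT DN3. It ran from 20.3 to 32.5 RPKM in HET DN3 and from 32.48 to 48.4 RPKM in HET DN2. WT DN2 had 48.1, 37.7, 45.1 and 41.2 RPKM, above every DN3 and HOM library, and HET DN3 met HET DN2 only at its highest library. Etv6 (chr6:133985718-134220165, plus strand, mm9) was 2-fold lower in HOM than in WT DN2 (log2 change -1.0, SE 0.16, adjusted p 3.33e-05). WT DN3 was 1.58-fold lower than WT DN2 (-0.66, SE 0.16, adjusted p 0.00535) and HET DN3 1.60-fold lower than HET DN2 (-0.68, SE 0.14, adjusted p 0.00464). HOM against WT DN3 gave -0.34 (SE 0.15, adjusted p 0.0743), or -0.45 (adjusted p 0.0246) without HOM replicate 5.

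Elf4 and Elf1 are close relatives that are broadly expressed in lymphocytes, and Elf4 is needed for NK-cell development. Elf4 had 47.1, 50.7, 53.6, 39.3 and 42.6 RPKM in HOM, against 30.4, 30.7, 28.4, 30.7 and 30.3 RPKM in WT DN3. The range was 27.1 to 41.3 RPKM in HET DN3, 29.5 to 35.6 RPKM in HET DN2 and 31.8 to 33.8 RPKM in WT DN2. HOM was the high group and lay above every library except HET DN3 replicate 3. The gene (chrX:45764226-45816309, minus strand, mm9) was 1.52-fold higher in HOM than in WT DN3 (log2 change 0.60, SE 0.08, adjusted p 7.37e-06), 1.43-fold higher than in HET DN3 (0.52, SE 0.08, adjusted p 4.29e-05) and 1.46-fold higher than in WT DN2 (0.55, SE 0.09, adjusted p 4.73e-05). All 3 calls stood under every alternative run, and the stage steps gave -0.01 (adjusted p 0.95) in HET and -0.05 (adjusted p 0.736) in WT. The sum of NK and innate lymphoid markers (8 genes) was also high in HOM, at 62.4 to 109 RPKM, against 1.88 to 7.09 RPKM in WT DN3. Fcer1g made up most of the HOM sum. Not every marker was detected in every HOM library. Ncr1 was listed at 0 in HOM replicates 2 and 3, Eomes in HOM replicate 2 and Tbx21 in HOM replicate 5. In the controls, Ncr1 was at 0 in every WT DN3 and WT DN2 library, and Tbx21 in none of them. Eomes was at 0 in WT DN3 replicate 3 and in WT DN2 replicates 1, 3 and 4. Klrk1 was above 0 in every HOM library and at 0 in replicates 3 and 4 of WT DN3 and of WT DN2. HET DN3 replicate 1 had a sum of 35.85 RPKM with Elf4 at 30.48 RPKM. The part of these markers in the Elf4 change was not tested.

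Elf1 (chr14:79881001-79982298, plus strand, mm9) had 52.5, 58.2, 53.1, 49.3 and 49.7 RPKM in HOM, against 38.6, 38.8, 33.8, 36.3 and 38.8 RPKM in WT DN3, with no overlap. It was 1.38-fold higher in HOM (log2 change 0.47, SE 0.10, adjusted p 0.000859), a call that stood under every alternative run. Against HET DN3 the change in HOM was 0.32 (SE 0.10, adjusted p 0.0152), or 0.21 (adjusted p 0.225) without the 6 libraries with epithelial transcripts, and against WT DN2 it was 0.17 (adjusted p 0.213). WT DN3 was lower than WT DN2 (-0.30, SE 0.11, adjusted p 0.0484), near the threshold. That call was lost without any WT DN3 library and without WT DN2 replicate 1 or 2 (adjusted p 0.0635 to 0.219), and it was kept in the paired fit (-0.31, SE 0.06, adjusted p 0.00426). Elf4 was thus called in HOM against 3 control groups, and Elf1 against the 2 DN3 groups.

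Neither HET group showed a called change in any member against WT of its stage in the main fit. In HET DN3 against WT DN3, 0 of 10 members passed the test, where 7.37% of all genes did (4.31% higher, 3.06% lower; limma called 316 genes higher and 142 lower there). The lowest adjusted p was that of Ets2, at 21.5 ± 3.85 RPKM in HET DN3 (SD, n = 6) and 28.0 ± 4.40 RPKM in WT DN3 (SD, n = 5), where HET DN3 gave -0.42 on the log2 scale (SE 0.19, adjusted p 0.137) and -0.51 (adjusted p 0.0483) without the 6 libraries with epithelial transcripts. Spi1 had the largest change, -1.29 (SE 0.73, adjusted p 0.235). In HET DN2 against WT DN2, 0 of 10 members and 0 of 12218 genes passed (0.0%; edgeR, 912 genes at an unadjusted p under 0.05, and 182 genes called by DESeq2). Member changes there ran from -0.22 (Ets1, SE 0.15) to 0.15 (Etv5, SE 0.45), with adjusted p of at least 0.851. A p above the threshold does not show that the levels were equal. HET DN2 cells were sorted without the reporter signal (YFP-), so their comparison cannot show the effect of deleting 1 allele. Their mean Bcl11b was 145.0 RPKM, against 147.8 RPKM in WT DN2.

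Kit, the receptor for stem cell factor and a gene of the DN2 stage, gave a second reading of stage beside Spi1, Erg and Etv6, which were lower in HOM than in WT DN2. Kit had 59.3, 48.9, 50.1, 33.9 and 56.1 RPKM in HOM, against 8.21, 7.57, 7.41, 8.36 and 15.6 RPKM in WT DN3 and 30.5, 17.96, 23.6 and 21.8 RPKM in WT DN2. It was higher in HOM than in WT DN3 (log2 change 2.36, SE 0.25, adjusted p 1.39e-07) and than in WT DN2 (1.13, SE 0.26, adjusted p 0.00124). In the HET and WT libraries the stages with more Kit also had more Erg and Etv6. HOM libraries, which held the most Kit, had Erg and Etv6 levels within or below those of the DN3 groups. Cpa3, a mast-cell protease gene of early progenitors, was also higher in HOM than in WT DN3 (3.27, SE 0.76, adjusted p 0.00165), and HOM against WT DN2 gave 0.13 (adjusted p 0.905). Defining mast and basophil markers (7 genes) summed to at most 1.77 RPKM in any HOM library.

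**Figure D3:**
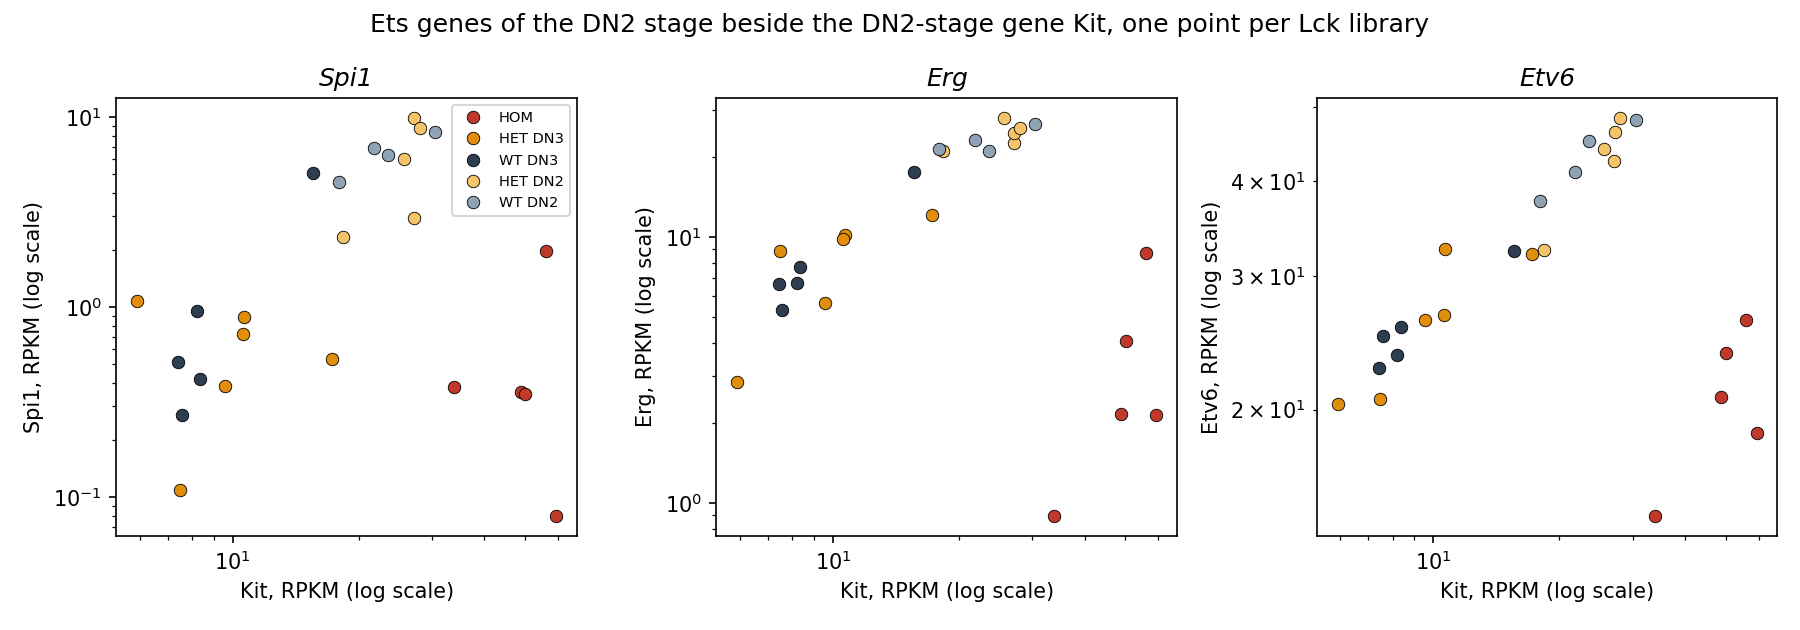
Level of Spi1, Erg and Etv6 (vertical axes, RPKM, log scale) beside that of Kit (horizontal axis, RPKM, log scale), with 1 point for each of the 25 Lck libraries. HOM libraries lie at the right, at 33.9 to 59.3 RPKM of Kit, and low, while WT DN2 libraries at 17.96 to 30.5 RPKM of Kit hold 4.55 RPKM or more of Spi1.

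In the Vav1-iCre table, whose 2076 genes the authors had selected on these same libraries, the values are a description and were not tested. The full depth of these libraries is unknown, and the 6 members without values were not analysed there. Levels are scaled CPM (counts scaled to the total of the listed genes and set on a common scale). Spib had 288, 290 and 371 scaled CPM in Vav HOM, against 738, 1014, 1065 and 884 in Vav HET and 998 and 910 in Vav WT, so that no HOM library reached a control. Its ratio of means was 2.92-fold lower in HOM than in HET (log2 -1.55) and 3.01-fold lower than in WT (log2 -1.59). Spib was thus low in HOM with both Cre drivers. All genes of the Vav table were either clearly lower (1104) or clearly higher (972) in HOM, so a difference in a listed member came with the selection.

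Erg had 84.3, 120 and 185 scaled CPM in Vav HOM, against 1096, 1090, 784 and 697 in Vav HET and 816 and 745 in Vav WT. HOM lay far below both control groups, 7.07-fold below HET and 6.02-fold below WT. Ets2 went up, with 2810, 1750 and 2223 scaled CPM in Vav HOM, against 868, 909, 873 and 467 in Vav HET and 1316 and 875 in Vav WT (2.90-fold above HET and 2.06-fold above WT, no overlap). Etv5 had 114, 140 and 178 scaled CPM in Vav HOM, against 426, 358, 422 and 208 in Vav HET and 336 and 115 in Vav WT. It was below HET in every HOM library (2.45-fold), and it overlapped WT (1.57-fold below, but log2 0.33 above without Vav WT replicate 1). In the Lck groups, Ets2 and Etv5 gave -0.05 and -0.20 on the log2 scale in HOM against WT DN3, both uncalled. The tables were normalized apart and selected differently, so the difference between them was not tested.

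**Figure D4:**
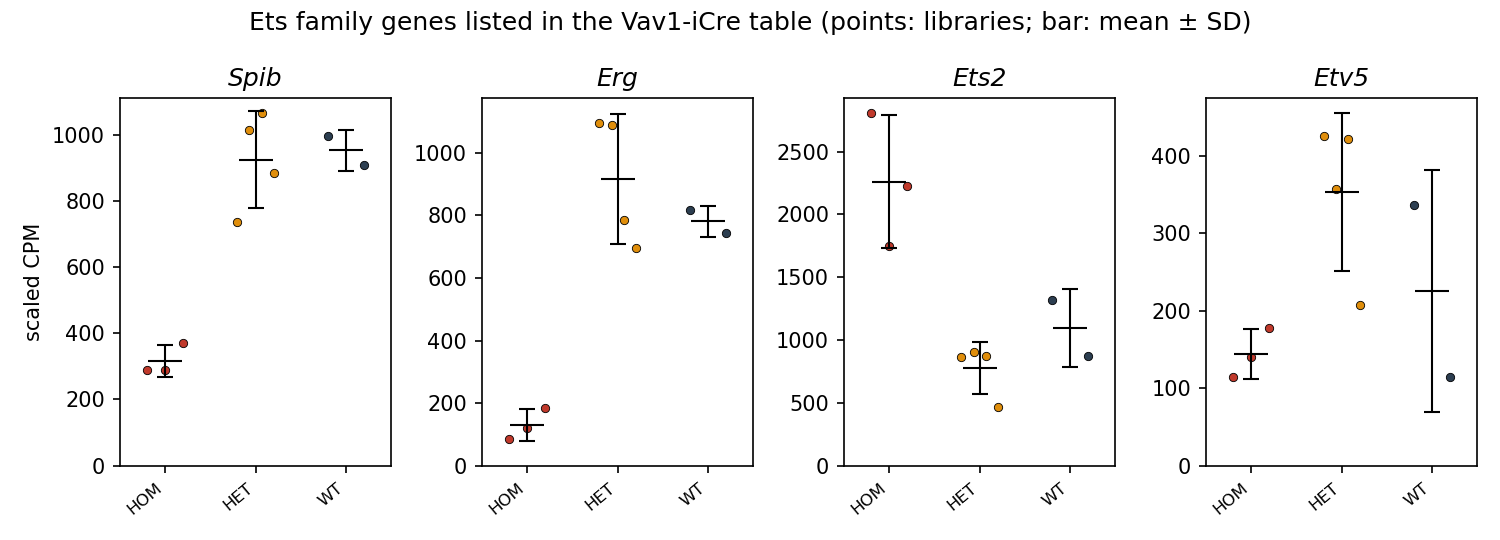
Level of the 4 members with values in the Vav1-iCre table (vertical axis, scaled CPM, from 0) in Vav HOM, HET and WT. Points are libraries and bars give the mean ± SD; Spib and Erg lie lower in HOM than in all controls, Ets2 lies higher than in all controls, and Etv5 overlaps WT.

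For each member the 3 genes with the most similar pattern were taken by Pearson r of log2(RPKM + 1) over the 25 Lck libraries, among 9504 genes with at least 5 RPKM in at least 1 group. These r are descriptions: the libraries fall into 5 groups and share depth and composition, and no p is given. Spi1 was most like Btk, a kinase gene of B and myeloid cells (r 0.954), Ctla2b (0.943, a gene with a near copy, so its counts are uncertain) and Rgs18 (0.937). Btk had 0.861 RPKM in HOM, 1.28 in HET DN3, 1.60 in WT DN3, 8.72 in HET DN2 and 7.31 in WT DN2. Spib was most like Arl5c (0.979), Dgkeos (0.968) and Unc5cl (0.967). Arl5c had 4.87 RPKM in HOM, 38.1 in HET DN3, 54.2 in WT DN3, 38.0 in HET DN2 and 46.5 in WT DN2. Dgkeos lies on the strand opposite Dgke, and these libraries do not tell strands apart.

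Erg was most like Snn (0.973), Runx2, a Runx family factor (0.962), and Plekha7 (0.961). Etv6 was most like Hp1bp3 (0.972), Mta3 (0.963) and Ankrd27 (0.96), and Elf4 most like Mr1 (0.936), Galnt4 (0.93) and Prkca (0.923), the gene of protein kinase C alpha. Mr1, which encodes a molecule that presents vitamin metabolites to T cells, had 10.4 RPKM in HOM, 4.77 in HET DN3, 3.75 in WT DN3, 4.42 in HET DN2 and 4.40 in WT DN2. Elf1 was most like Ankrd44 (0.955), Etv5 most like Thap12 (0.94) and Fli1 most like Foxp1 (0.918), a forkhead factor. Ets1 was most like Il6st (0.887), the shared receptor chain of the IL-6 family, and Tox (0.837), and Ets2 was most like Polr2l, at 0.785 the lowest r of the 10. Without the 6 libraries with epithelial transcripts, Spib, Fli1, Ets1, Etv6 and Elf1 shared 2 of their 3 genes with the list over all libraries, Spi1 and Etv5 shared 1, and Erg, Ets2 and Elf4 shared 0.

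Of the other Ets family genes, Erf was called in all 3 comparisons of HOM. Of 16 listed, 9 were tested, and in HOM against WT DN3 Elf2, Gabpa and Elk3 were higher and Erf lower. Erf, an ERK-regulated repressor, had 13.0 RPKM in HOM and 23.5 RPKM in WT DN3 (means; log2 change -0.89, SE 0.13, adjusted p 9.61e-06). Elf2, the relative of Elf1 and Elf4, gave 0.27 (SE 0.07, adjusted p 0.00244), Gabpa, a broadly needed factor, 0.24 (SE 0.08, adjusted p 0.0224) and Elk3 0.38 (SE 0.15, adjusted p 0.0424). The list's median was 0.24, against 0.009 for all genes. Among all genes, 39.4% were called in HOM against WT DN3, 24.8% against HET DN3 and 41.2% against WT DN2. The stage steps called 21.5% in WT and 10.9% in HET, and HET DN3 against WT DN3 called 7.37%. Erf was also lower in HOM against HET DN3 (-0.51, SE 0.12, adjusted p 0.00341), the 1 call there, and against WT DN2 (-0.56, SE 0.13, adjusted p 0.002), where Gabpa was higher (0.32, SE 0.09, adjusted p 0.00599). That comparison gave 1 higher and 1 lower, or 2 higher and 3 lower without the 6 libraries with epithelial transcripts. In WT DN3 against WT DN2, Elk3 (-0.72, SE 0.15, adjusted p 0.00208) and Elf2 (-0.28, SE 0.07, adjusted p 0.0064) were lower, and the paired fit called 1 higher and 3 lower. Elk3 was the 1 gene called in HET DN3 against HET DN2 (-0.44, SE 0.14, adjusted p 0.0431; 0 called without the 6 libraries), and 0 of 9 were called in the 2 comparisons of HET with WT.

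Genes that depend on PU.1 or mark myeloid progenitors were lower or uncalled at DN3 against DN2, and went both ways in HOM. Of 25 listed, 17 were tested, and the list holds genes of several programmes. Among all genes, 21.5% were called in the WT step and 10.9% in the HET step. In WT DN3 against WT DN2, 7 were lower and 0 higher (median log2 change -1.91, against -0.022 for all genes). The paired fit called 14 lower and 0 higher, and 10 lower were called without WT DN3 replicate 5. Lyn, a Src family kinase gene, was lower by -1.10 (SE 0.25, adjusted p 0.00323), Tyrobp, the adaptor DAP12, by -2.07 (SE 0.60, adjusted p 0.0169) and Btk by -2.10 (SE 0.63, adjusted p 0.021). HET DN3 against HET DN2 also gave 7 lower and 0 higher (median -0.93), among them Btk (-2.75, SE 0.59, adjusted p 0.00464). Cd34, a progenitor surface gene, was at 0.0422 RPKM in HET DN3 and 4.40 RPKM in HET DN2 (adjusted p 0.00645), and Lyl1, a progenitor factor gene, at 0.884 RPKM in HET DN3 and 14.8 RPKM in HET DN2 (adjusted p 0.00661).

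In HOM against WT DN2, 9 of these 17 genes were lower and 4 higher (median -1.56, against 0.037 for all genes). Among all genes, 41.2% were called in that comparison, 39.4% in HOM against WT DN3 and 24.8% in HOM against HET DN3. Bcl11a (-2.78, SE 0.45, adjusted p 3.84e-05), the paralog of Bcl11b, and Csf2ra (-1.56, SE 0.28, adjusted p 0.000146), a receptor chain for GM-CSF, were lower. Fcer1g, a signalling chain of Fc receptors that NK and mast cells use, was higher, at 62.8 RPKM in HOM and 1.91 RPKM in WT DN2 (log2 change 5.08, SE 0.72, adjusted p 8.82e-06). Named after their values were seen, Lyn, Flt3 and Tyrobp were the other 3 higher genes. In HOM against WT DN3, 6 were higher and 4 lower (median -0.62, and 0.74 without WT DN3 replicate 5, where 7 were higher and 3 lower). Lyn (2.46, SE 0.25, adjusted p 7.44e-08), Fcer1g (6.55, SE 0.71, adjusted p 2.39e-07) and Tyrobp (3.76, SE 0.62, adjusted p 4.9e-05) were higher. Named after their values were seen, Bcl11a (-1.66, SE 0.42, adjusted p 0.00344) and Csf2ra (-1.06, SE 0.27, adjusted p 0.00344) were among the lower genes. Fcer1g and Tyrobp also belong to the NK and innate lymphoid markers, whose sum was high in HOM, as Elf4 was. HOM against HET DN3 gave 5 higher and 4 lower (median -0.40, and 0.41 with 5 higher and 3 lower when the 6 libraries with epithelial transcripts and 2 with mature T-cell transcripts were left out). HET DN3 against WT DN3 called 7.37% of all genes. Lyn was the 1 gene called in HET DN3 against WT DN3 (0.77, SE 0.23, adjusted p 0.0461; 0 called without the 6 libraries and 2 without WT DN3 replicate 5), and 0 were called in HET DN2 against WT DN2.

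**Figure D5:**
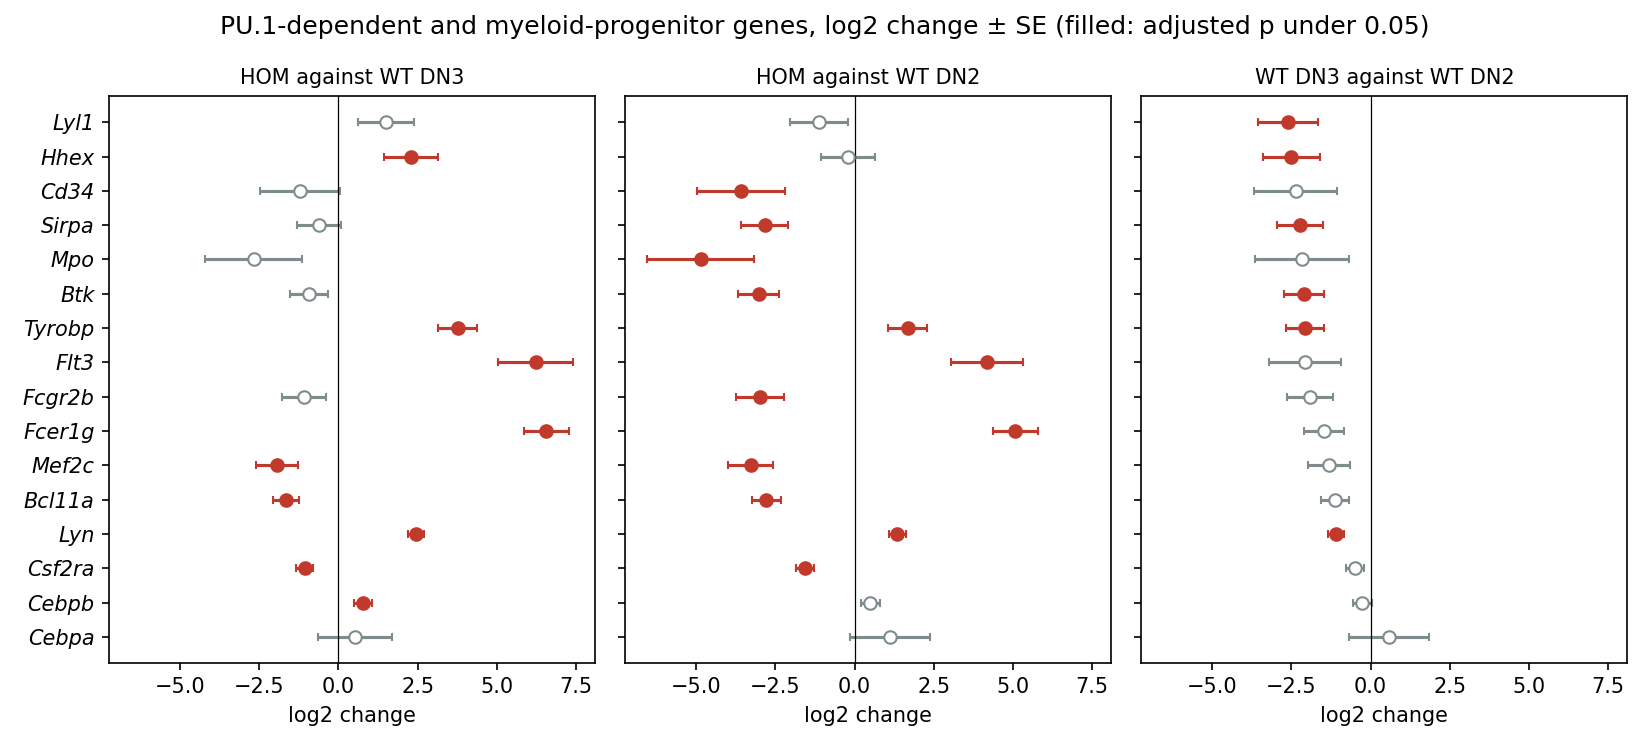
Log2 change (horizontal axis, bars ± SE) of 16 of the 17 tested PU.1-dependent and myeloid-progenitor genes in HOM against WT DN3, HOM against WT DN2 and WT DN3 against WT DN2. Filled points passed an adjusted p of 0.05: among these 16, 6 higher and 3 lower in the first panel, 4 higher and 8 lower in the second, and 0 higher and 6 lower in the third.

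Partners and antagonists of Ets factors were tested in 18 of 19 cases. Among all genes, 39.4% were called in HOM against WT DN3, 24.8% against HET DN3 and 41.2% against WT DN2. Without the 6 libraries with epithelial transcripts, the list gave 3 higher and 8 lower in HOM against WT DN3. It then gave 3 higher and 4 lower against HET DN3, and 3 higher and 7 lower against WT DN2. The counts that follow are from all libraries. In HOM against WT DN3, 3 were higher and 6 lower, led by Runx3 (1.31, SE 0.15, adjusted p 7.84e-07), a Runx factor of cytotoxic and innate cells, with a mean of 41.7 RPKM in HOM and 16.5 RPKM in WT DN3. Gfi1, a repressor that antagonises PU.1, was lower (-0.80, SE 0.15, adjusted p 0.00021), as was its relative Gfi1b (0.0783 RPKM in HOM and 0.984 RPKM in WT DN3, adjusted p 0.000916). HOM against HET DN3 gave 3 higher and 5 lower, with Runx3 (1.38, SE 0.15, adjusted p 2.77e-07) among the higher and Irf8, a partner of PU.1 (-0.88, SE 0.20, adjusted p 0.00227), and Runx2 (-1.34, SE 0.32, adjusted p 0.00291) among the lower. HOM against WT DN2 gave 2 higher, among them the E-protein gene Tcf12 (0.59, SE 0.11, adjusted p 0.000288), and 6 lower, led by Runx2 (-2.31, SE 0.34, adjusted p 1.53e-05) and Gfi1 (-1.03, SE 0.16, adjusted p 2.02e-05).

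Between stages, all 3 Runx genes were lower at DN3. Among all genes, 21.5% were called in the WT step, 10.9% in the HET step and 7.37% in HET DN3 against WT DN3. In WT DN3 against WT DN2 the changes were -0.93 for Runx3 (SE 0.16, adjusted p 0.000399), -0.47 for Runx1 (SE 0.11, adjusted p 0.00423) and -1.28 for Runx2 (SE 0.34, adjusted p 0.00937). These were the 3 lower genes, beside 2 higher, and the paired fit called 3 higher and 5 lower. HET DN3 against HET DN2 gave 4 lower and 2 higher (2 lower and 1 higher without the 6 libraries with epithelial and 2 with mature T-cell transcripts), with -0.90 for Runx3 (SE 0.15, adjusted p 0.000696), -0.53 for Runx1 (SE 0.10, adjusted p 0.00205), -1.19 for Runx2 (SE 0.30, adjusted p 0.0139) and 0.39 for Tcf7, an HMG-box factor of T cells (SE 0.11, adjusted p 0.0234). In HET DN3 against WT DN3 the 1 call was Tcf3, an E-protein gene (-0.42, SE 0.12, adjusted p 0.0428; 0 called without the 6 libraries or without WT DN3 replicate 5). In HET DN2 against WT DN2, 0 were called.

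Genes of ERK feedback, which are often induced together with Etv5, were called between stages in a share near that of all genes. Of 14 listed, 10 were tested, and 3 were called in the WT step (21.5% of all genes) and 1 in the HET step (10.9%). For HOM the shares of all genes were 39.4% against WT DN3, 24.8% against HET DN3 and 41.2% against WT DN2. For HET DN3 against WT DN3 the share was 7.37%. At DN3 in WT, relative to DN2, Phlda1 was higher (2.76, SE 0.92, adjusted p 0.036) and the phosphatase genes Dusp5 (-0.69, SE 0.21, adjusted p 0.0216) and Dusp6 (-1.89, SE 0.60, adjusted p 0.0283) were lower (paired fit 2 higher and 2 lower; without WT DN3 replicate 5, 0 higher and 2 lower). The HET stage step gave 1 lower, Dusp5 (-0.86, SE 0.19, adjusted p 0.00546), and 1 higher and 1 lower without the 6 libraries. In HOM against WT DN3, Spred2, an ERK inhibitor gene (-1.02, SE 0.17, adjusted p 4.05e-05), Dusp4 (-2.69, SE 0.49, adjusted p 0.00014) and Spry1 (-1.0, SE 0.26, adjusted p 0.00448) were lower and Spry2 was higher (1.39, SE 0.47, adjusted p 0.0233). Against HET DN3, HOM had 0 higher and 4 lower, Spred2 (-0.97, SE 0.16, adjusted p 7.84e-05), Spry1 (-1.34, SE 0.26, adjusted p 0.000432), Dusp4 (-2.21, SE 0.47, adjusted p 0.00111) and Egr2 (-2.69, SE 0.99, adjusted p 0.0488). Against WT DN2 it had 5 lower, led by Spred2 (-0.98, SE 0.17, adjusted p 0.000109), Dusp5 (-1.06, SE 0.21, adjusted p 0.000333) and Dusp4 (-1.61, SE 0.49, adjusted p 0.0113), and 1 higher, Phlda1 (3.58, SE 0.95, adjusted p 0.0045). Dusp6 was the 1 gene called in HET DN3 against WT DN3 (2.07, SE 0.57, adjusted p 0.0382; 0 called without the 6 libraries or without WT DN3 replicate 5), and 0 were called in HET DN2 against WT DN2.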

How the data were processed

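RNA was sequenced in 34 libraries of 8 groups (NEBNext Ultra, 50-nt single reads, not stranded). The deposited values are counts: although the table names say RPKM, per the file headers HOMER counted reads over exons with no adjustment, on mm9, and all values are whole numbers. The submitters' processing notes list edgeR 3.6.8, HOMER, RSEM 1.2.25, Trimmomatic 033 and STAR 2.4.0. All value columns were matched to samples.

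In 10 of the 25 Lck columns (WT DN2 and HET DN3) the 26 values of Marc, March and Sept symbols are missing, so later values stood beside other genes. They were moved down past those symbols. The log-scale correlation with the complete columns then went to 0.975 or more, against 0.451 or less as deposited, over 7154 genes, and to 0.965 or more, against 0.153 or less, over 4991 genes. Another 114 genes of unsettled order were dropped, which left 24365. No member was among them.

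RPKM was computed from counts, exon length and library total. The 12218 genes whose average reached 1 RPKM in some Lck group entered 1 edgeR 4.0.16 quasi-likelihood fit of the 5 groups (R 4.3.3, TMM scaling), with 2-sided tests and Benjamini-Hochberg adjustment over all tested genes. SE is the absolute log2 change divided by the square root of F. The script was tested on simulated data. No 2 replicates agreed within sampling noise. DESeq2 1.42.0, limma 3.58.1, other filters and scalings, left-out libraries and a replicate block were alternatives. Libraries with the same replicate number deviated together in WT DN3 against WT DN2 (r 0.22 to 0.58 in all 4 pairs, across genes), so that comparison is also given as a paired fit, on replicates 1 to 4 of those 2 groups. Only 2 of these 4 WT DN3 libraries correlated best with the WT DN2 library of their own number. The labels do not say what a number marks, so the pairing is not established.

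The Vav table holds 2076 genes, 1104 lower and 972 higher in HOM with a gap around no change, and 1329826 to 2836293 counts per library. Its counts were scaled within controls and within HOM, and the gap (log2 -0.99 to 0.99) was centred on 0.

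The members, gene lists and markers were chosen with earlier results of these data known. Genes named are the members, Bcl11b, the 3 most similar genes per member and, from each list, up to 4 called genes with the smallest adjusted p. Exceptions are said. Some genes that the rule picks are counted with their lists but not reported here.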

Additional observations from a re-analysis of the deposited data

Results flagged for a closer look

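In 8 of 54 groups of 4 to 6 libraries tested, the highest or lowest library of a member stood far from the others. Chance flags about 1 in 20 groups. Spi1 was at 1.985 RPKM in HOM replicate 5, against at most 0.378 in the other HOM libraries. WT DN3 replicate 5 was high for Spi1, at 5.095 RPKM against at most 0.959, and for Erg, at 17.52 RPKM against at most 7.69. In that library the DN2-stage markers summed to 43.0 RPKM, against at most 9.68 in the other WT DN3 libraries, and their part in the Spi1 and Erg values was not tested.

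Ets1 was at 238.5 RPKM in WT DN2 replicate 2, against at most 155.9 in the other WT DN2 libraries. That library had the most mature T-cell transcripts, 211 RPKM summed over 6 markers, against a median of 10.3 in WT DN2, and their part was not tested. Ets2 was at 28.77 RPKM in HET DN3 replicate 2, against at most 21.56 in the others, and that library held 1991 RPKM of epithelial markers. In Vav HET replicate 4, Ets2 was at 466.5 scaled CPM, against at least 867.9 in the other Vav HET libraries. Etv5 was at 13.97 RPKM in HOM replicate 4, against at most 6.36 in the others. Elf4 was at 28.41 RPKM in WT DN3 replicate 3, against at least 30.28 in the others.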

How the results depend on the processing

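Of 70 member results in 7 comparisons, 51 kept their side of the threshold in every alternative run. Of 1700 member values under alternatives, 58 lost and 27 gained a call, and 103 had another sign, all uncalled in both. 0 called values changed sign. In the Vav ratios the direction of Etv5 in HOM against WT turned: it was -0.65, and between -1.22 and 0.33 leaving out 1 library (0.33 without Vav WT replicate 1). In HOM against WT DN3, adjusted p under 0.01 left 3057 genes and 3 members, and leaving out the 6 libraries with epithelial transcripts left 3 members. In HOM against HET DN3 the replicate block gave 1507 genes and 2 members, and adjusted p under 0.01 gave 1870 genes and 2 members. HET DN3 against WT DN3 moved most: 1877 genes with DESeq2, 458 and 537 with limma (pseudocounts 1 and 0.1), 438 with a total count filter of 10, 65 with only the 2 groups in the fit, 350 with the replicate block, 212 (and 1 member) without the 6 libraries, 75 without these and 2 with mature T-cell transcripts, 8 at 0.01 and 10 to 1662 leaving out 1 library. HET DN2 against WT DN2 gave 182 genes with DESeq2, 3 with the block, and 1 without the 6 and 1 without the 8 libraries. In WT DN3 against WT DN2, 4497 genes were called with the 2 groups alone, 5508 in the paired fit and 1246 at 0.01. Members numbered 3 without the 8 libraries, 3 at 0.01 and 3 to 6 leaving out 1 library. HET DN3 against HET DN2 gave 461 genes with the 2 groups alone, 142 (and 1 member) with the block, 481 at 0.01 and 838 to 1632 leaving out 1 library. The block took the calls of Spi1 (adjusted p 0.0529), Erg (0.0528) and Etv5 (0.0889) there. The difference between the stage steps gave 20 genes with DESeq2, 2 without the 6, 5 without the 8 and 0 to 1 leaving out 1 library. Outside WT DN3 against WT DN2, the 6 comparisons share only numbers, with a lowest r of a pair of -0.527 to -0.059. In none of the 7 comparisons did every library correlate best with its own number (2 of 4 did in WT DN3 against WT DN2). No other count of a fit with the block differed from the main fit by over 1.5 times. Where no cause is given, the cause was not tested. Depth limits Spi1 most. List counts without some libraries or with the block were added after seeing the data.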

Other observations

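Lymphoid genes of early T cells, all 12 of them tested, were mostly lower in HOM than in WT DN3, with 8 lower, 3 higher and a median log2 change of -0.68, against 0.009 for all genes. Il7r, the IL-7 receptor gene, was higher, at 91.2 RPKM in HOM and 32.5 RPKM in WT DN3 (log2 change 1.46, SE 0.12, adjusted p 6.22e-09). Cd3d (-1.58, SE 0.18, adjusted p 6.16e-07) and Cd3e (-0.92, SE 0.15, adjusted p 4.14e-05), chains of the T-cell receptor complex, were lower, as was Dntt, the terminal transferase gene (-0.95, SE 0.14, adjusted p 9.77e-06). HOM against HET DN3 gave 1 higher and 7 lower, and HOM against WT DN2 gave 2 higher and 6 lower. Among all genes, 39.4% were called in HOM against WT DN3, 24.8% against HET DN3 and 41.2% against WT DN2. The stage steps called 21.5% in WT and 10.9% in HET. In WT DN3 against WT DN2, 2 were higher, Thy1 (0.42, SE 0.10, adjusted p 0.00557) and Rag1 (0.71, SE 0.18, adjusted p 0.00688), and 3 lower, among them Il7r (-0.46, SE 0.13, adjusted p 0.013) and Il2ra, the CD25 gene (-0.56, SE 0.16, adjusted p 0.0135). HET DN3 against HET DN2 gave 2 higher, led by Rag1 (0.84, SE 0.16, adjusted p 0.00231), and 2 lower, led by Dntt (-0.56, SE 0.13, adjusted p 0.00778), or 1 higher and 1 lower without the 6 libraries with epithelial transcripts. In HET DN3 against WT DN3, where 7.37% of all genes were called, Il7r was the 1 called gene of the 12 (0.60, SE 0.12, adjusted p 0.0148). In HET DN2 against WT DN2, 0 were called (0.0% of all genes).

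The summed level of the 10 Ets members was 339.8 ± 22.6 RPKM in HOM (SD, n = 5), 377 ± 44.2 RPKM in HET DN3 (n = 6), 335 ± 19.3 RPKM in WT DN3 (n = 5), 364.5 ± 40.9 RPKM in HET DN2 (n = 5) and 394 ± 45.5 RPKM in WT DN2 (n = 4), with libraries that overlapped between groups except WT DN3 (306.6 to 356.9) and WT DN2 (357.8 to 460.3). Within that sum, Elf1 and Elf4 made up 15.5% ± 0.657 and 13.7% ± 1.22 in HOM, against 11.1% ± 0.421 and 9.01% ± 0.300 in WT DN3 (SD, n = 5 each). Spib made up 0.613% ± 0.220 in HOM and 5.08% ± 1.46 in WT DN3. Ets1 held 43.95% ± 2.35 in HOM and 46.9% ± 3.84 in WT DN3. The ratio of Ets1 to Ets2 averaged 5.83 in HOM, 9.35 in HET DN3, 5.74 in WT DN3, 9.09 in HET DN2 and 10.3 in WT DN2, and its library values in HOM (3.84 to 9.41) and WT DN3 (4.40 to 7.15) overlapped.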
